A study of Oryctolagus cuniculus with 27 samples.

Results

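Healthy aortic valve tissue was set against healthy heart muscle of the same breed: 4 libraries of aortic valve cusp and 3 libraries of left ventricular myocardium from male New Zealand rabbits on normal chow, 7 of the 27 libraries sequenced. The strain was wild type by its labels. The valves came from animals C38, C42, C43 and C45 and the myocardium from animals C42, C43 and C49, so that 2 animals gave both tissues. For each valve 1 cusp had been cut out, freed of most of the fat around it and rinsed of blood. The titles give 7 weeks for 3 of the control valves and 2 weeks for 1, whereas the design text speaks of controls pooled from 2 and 4 weeks, so that the time on chow is uncertain. Each value is the number of reads assigned to a gene in bulk tissue RNA. In such data fewer cells of a type and less RNA per cell cannot be told apart.

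The cusp of an aortic valve is a thin, mostly avascular leaflet. Its valve interstitial cells lay down layers of collagen, proteoglycan and elastic fibre under a sheet of endothelium, and they are the cells that turn fibrous or bone-like in valve stenosis. Ventricular myocardium is built of cardiomyocytes, packed with sarcomeres and mitochondria and fed by a dense capillary bed that delivers fatty acids and oxygen. The comparison of the 2 tissues shows which genes set a resting valve apart from the muscle it is cut from, the background against which the study filtered its valve data for possible traces of myocardium.

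Library totals were 12308739 to 15627075 reads for valves and 13954419 to 17018981 for myocardium. Log2 levels correlated at r = 0.933 to 0.970 among valves, 0.924 to 0.957 within myocardium and 0.746 to 0.875 between the tissues. The labelled tissues carried their defining markers. Of 8 valve interstitial markers 8 were higher in valves, against 22.2% of all genes tested. Of 7 heart muscle markers 7 were lower in valves, against 21% of all genes tested. The heart muscle markers were nevertheless far from 0 in every valve library, with a summed level of 6215 to 32285 CPM in valves and 69033 to 121933 CPM in myocardium. CPM is a gene's reads scaled to a library total of 1000000, after TMM scaling, which corrects for composition. The library names end in a number whose meaning the labels do not give, 31 to 34 in valves and 20, 28 and 29 in myocardium. Whatever it marks cannot be told apart from tissue.

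Genes of the sarcomere took 3.45% ± 1.74 of counts in valves (SD, n = 4) and 12.6% ± 2.33 in myocardium (SD, n = 3). By library the share was 2.88% in valve C38, 1.64% in valve C42, 5.78% in valve C43 and 3.50% in valve C45, against 14.1%, 13.9% and 9.94% in myocardium C42, C43 and C49. The groups did not overlap, and valve C43 held more than 3 times the share of valve C42. Among the 37 sarcomere genes with at least 100 CPM in myocardium, the median gene stood at 21.1% of its mean myocardial level in valve C38, 9.18% in C42, 44.1% in C43 and 27.7% in C45. Some members stood well above the median, such as NEXN at 62.0% and PPP1R12B at 60.4% in valve C42. The sarcomere share is therefore not a measure of heart muscle RNA alone. The ventricular genes MYH7, MYL2 and MYL3 took 1.47% ± 0.85 of counts in valves (SD, n = 4) and 6.99% ± 1.265 in myocardium (SD, n = 3). Sarcomere reads differed between the tissues and among the valves. The part of heart muscle RNA in the results on muscle and mitochondrial genes was not tested.

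**Figure D1:**
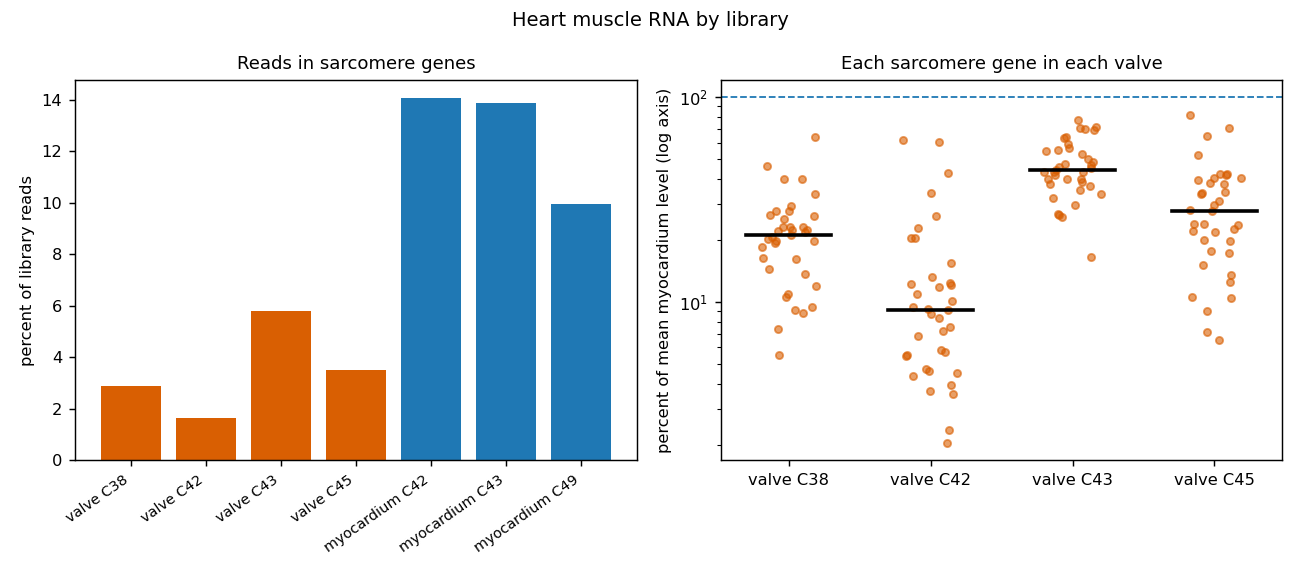
Reads in sarcomere genes in each library. Left, percent of a library's reads in genes of the thick filament, Z-disc and thin filament, one bar per library, valves before myocardium. Right, level of each of 37 sarcomere genes in each valve library as a percent of its mean level in myocardium (points), with the median as a black bar and the mean myocardium level as a dashed line. All 4 valves lie below all 3 myocardium libraries at left, and valve C42 has the lowest and valve C43 the highest median at right.

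Of 31346 genes, 14922 had enough reads to be tested. 3310 were higher in valves (22.2%) and 3135 lower (21%) at an adjusted p under 0.05, and the median log2 change over all genes tested was -0.0045. Large changes were mostly upward. Among called genes, 581 were higher by more than 3 on the log2 scale and 85 lower by more than 3, and 172 were higher and 5 lower by more than 5. A stricter test, which asks whether a change exceeds 2-fold, called 1210 genes higher (8.11%) and 553 lower (3.71%). With the animal as a block this count was 933 higher and 215 lower. In that fit only animals C42 and C43, which gave both tissues, inform the tissue difference. The lower count also turned on single libraries. It was 237 without valve C38, 381 without valve C42, 284 without valve C45, 269 without myocardium C42 and 345 without myocardium C43. In contrast, it was 950 without valve C43 and 764 without myocardium C49. Scaling by library totals alone moved the median of all genes by 0.37 on the log2 scale and the calls to 4938 higher and 1827 lower.

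The genes with the largest rise in valves were nearly silent in myocardium. ST6GAL2, a sialyltransferase, had 37.9, 77.2, 46.6 and 18.4 CPM in valves C38, C42, C43 and C45, against 0, 0.163 and 0.0612 CPM in myocardium C42, C43 and C49 (adjusted p = 0.000153). That is a ratio per library size of 637 (exact 95% interval 218 to 3092), an interval of counting error alone. OSR1, an odd-skipped transcription factor of connective tissue progenitors, had 67.3, 136, 106 and 133 CPM in valves C38, C42, C43 and C45, against 0.444, 0.408 and 0.306 CPM in myocardium C42, C43 and C49 (log2 change 8.16 ± 0.39). In both genes the lowest valve lay far above the highest myocardium library. ADRA1A, the alpha-1A adrenergic receptor, had 1885 reads over the 4 valves and 3 over the 3 myocardium libraries, a ratio per library size of 401 (exact 95% interval 137 to 1947). EDIL3, a secreted integrin ligand, was higher by 7.90 ± 0.65 on the log2 scale. C1QTNF3, a secreted relative of adiponectin, was higher by 7.35 ± 0.56, RNF112, a ubiquitin ligase, by 6.76 ± 0.57 and ARMH4 by 6.60 ± 0.55. CNMD, TNFRSF11B, MASP1, FMOD and HAPLN1, also among the 12 largest rises, are described below with their groups. LOC numbers were left out of this ranking. The genes had to reach 20 CPM in the higher tissue and to have no overlap between the tissues. That their groups lay apart was therefore a condition of the ranking.

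The steepest falls in valves were smaller. SHANK3, a scaffold protein, had 3.09, 1.72, 8.59 and 2.49 CPM in valves C38, C42, C43 and C45, against 89, 59.2 and 94.8 CPM in myocardium C42, C43 and C49 (log2 change -4.36 ± 0.52, adjusted p = 0.000583). RNF213, a large ubiquitin ligase linked to vascular disease, had 3.47, 1.77, 9.72 and 2.57 CPM in valves C38, C42, C43 and C45, against 55, 80.9 and 101 CPM in myocardium C42, C43 and C49 (-4.18 ± 0.55). Valve C43 was the highest valve for both genes and lay below every myocardium library, as the ranking required. Among the other falls were ABCA7, a lipid transporter (-4.20 ± 0.59), CDH23, a cadherin best known from the inner ear (-3.88 ± 0.40), NOTCH1 (-3.74 ± 0.46) and CELSR1, a planar polarity cadherin (-3.53 ± 0.68). Muscle genes in this group were MYH7B, a myosin heavy chain (-3.34 ± 0.55), ASB14 (-3.40 ± 0.54) and PPP1R3A, the muscle glycogen-targeting subunit of protein phosphatase 1 (-3.38 ± 0.73). KIF26A, an unconventional kinesin (-3.31 ± 0.35), SCN10A, a sodium channel (-3.23 ± 0.61), and SNAP91, a clathrin assembly protein of nerve terminals (-3.14 ± 0.38), completed the 12. The valve mean of these genes ran from 4.90% of the myocardial mean for SHANK3 to 11.4% for SNAP91.

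**Figure D2:**
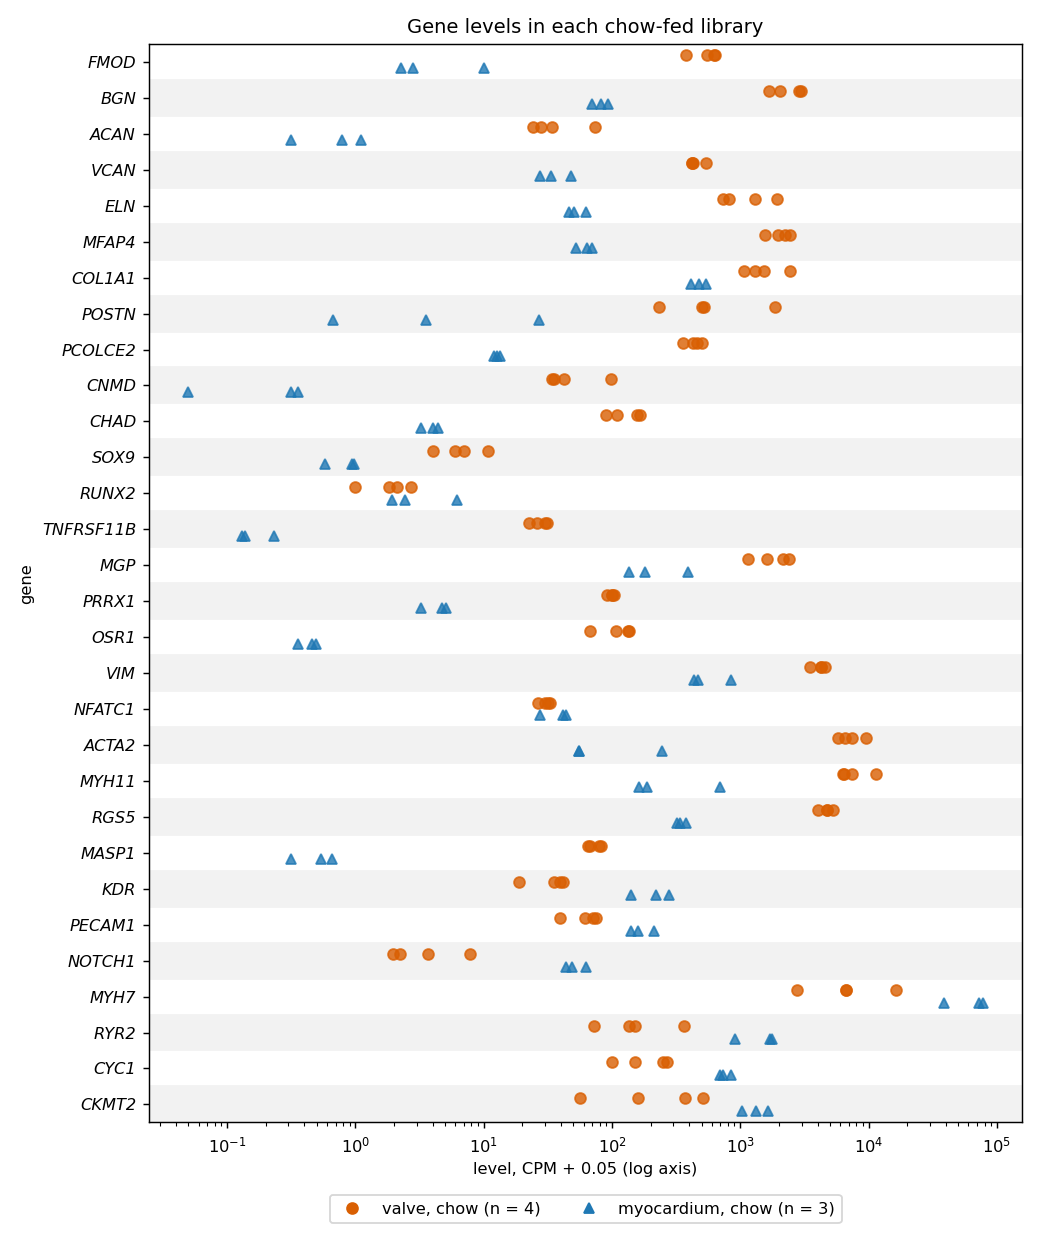
Levels of 30 named genes in each library, as CPM plus 0.05 on a log axis. Orange circles are the 4 chow-fed valves and blue triangles the 3 chow-fed myocardium libraries, with valves drawn above myocardium in each row. Matrix, cartilage and smooth muscle genes lie to the right in valves, endothelial, sarcomere and mitochondrial genes to the right in myocardium, and NFATC1 and RUNX2 overlap.

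Most collagen genes were higher in valves. Of 35 tested collagen genes 21 were higher and 5 lower in valves, against 22.2% and 21% of all genes tested, with a median log2 change of 1.57. These shares over all genes are the background for every list count that follows. COL1A1, the main chain of fibrillar type I collagen, had 2419, 1307, 1063 and 1522 CPM in valves C38, C42, C43 and C45, against 476, 539 and 413 CPM in myocardium C42, C43 and C49 (log2 change 1.73 ± 0.34, adjusted p = 0.00474). Its partner chain COL1A2 was higher by 2.09 ± 0.32, COL3A1 of type III collagen by 1.37 ± 0.28 and COL6A2 of microfibrillar type VI collagen by 1.83 ± 0.26. COL4A6, a basement membrane chain, had 115, 170.2, 119 and 86.9 CPM in valves C38, C42, C43 and C45, against 0.799, 1.47 and 1.96 CPM in myocardium C42, C43 and C49 (6.41 ± 0.39). COL10A1, the collagen of hypertrophic cartilage, was low, at 3.16, 1.14, 1.76 and 1.48 CPM in valves C38, C42, C43 and C45, and had no read in any myocardium library. That put it at least 25.1-fold higher in valves, taking 3 reads over the 3 myocardium libraries as the floor. The 5 lower genes were the basement membrane chain COL4A4 (-1.46 ± 0.30), COL6A6 (-1.67 ± 0.24), COL5A3, COL7A1 and COL27A1. With the animal as a block, the calls of COL1A1 (adjusted p = 0.115), COL3A1 (adjusted p = 0.188) and COL4A4 (adjusted p = 0.0527) were lost.

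Proteoglycans, the water-binding filler of the leaflet, were higher as a group. 24 of 30 tested genes for proteoglycans and hyaluronan handling were higher and 1 lower, with a median of 3.05 and 22 past the 2-fold test. FMOD, fibromodulin, which binds collagen fibrils, had 637, 550.4, 374 and 628 CPM in valves C38, C42, C43 and C45, against 2.22, 2.77 and 9.98 CPM in myocardium C42, C43 and C49 (log2 change 6.75 ± 0.65, adjusted p = 0.000238). BGN, biglycan, had 2974, 2048, 1677 and 2872 CPM in valves C38, C42, C43 and C45, against 82.4, 93.3 and 69.6 CPM in myocardium C42, C43 and C49 (4.87 ± 0.36). The valve values of both genes lay within a factor of 2 of each other and far above myocardium. OGN, osteoglycin, was higher by 4.31 ± 0.31, and DCN, decorin, by 2.21 ± 0.24. ACAN, the large aggregating proteoglycan of cartilage, had 73.3, 24.3, 28.1 and 34 CPM in valves C38, C42, C43 and C45, against 0.266, 1.06 and 0.734 CPM in myocardium C42, C43 and C49 (5.82 ± 0.59), and valve C38 was highest. Its relative VCAN, versican, was higher by 3.64 ± 0.27, and HAPLN1, the link protein that ties such proteoglycans to hyaluronan, by 6.73 ± 0.48. PRG4, lubricin, was higher by 2.81 ± 0.61. GPC1, a membrane-anchored heparan sulfate proteoglycan, was the single called gene that was lower (-1.92 ± 0.39). HSPG2, perlecan of basement membranes, did not pass (-0.17 ± 0.25, adjusted p = 0.604).

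Elastic fibre genes and adhesive glycoproteins moved the same way. Of 21 tested elastic fibre and microfibril genes 19 were higher, with a median of 2.72. ELN, elastin, had 1916, 823, 729 and 1304 CPM in valves C38, C42, C43 and C45, against 46.3, 50.5 and 62.4 CPM in myocardium C42, C43 and C49 (log2 change 4.49 ± 0.44, adjusted p = 0.000249). MFAP4, which binds elastin and fibrillin, had 1973, 2239, 1557 and 2424 CPM in valves C38, C42, C43 and C45, against 52.4, 63.7 and 70 CPM in myocardium C42, C43 and C49 (5.04 ± 0.32). Valve values of ELN spread more than those of MFAP4, and neither gene overlapped between tissues. EFEMP1, a fibulin, was higher by 5.23 ± 0.29, LTBP2, a latent TGF-beta binding protein, by 5.33 ± 0.38 and FBLN1 by 3.21 ± 0.29. Among adhesive and matricellular glycoproteins 25 of 33 were higher and 4 lower. POSTN, periostin, had 1878, 232, 516 and 499 CPM in valves C38, C42, C43 and C45, against 0.621, 27 and 3.49 CPM in myocardium C42, C43 and C49 (6.24 ± 1.38), with valve C38 well above the other 3 valves. FN1, fibronectin, was higher by 3.26 ± 0.31 and SPARCL1 by 2.74 ± 0.30. The lower genes were 4 of the basement membrane, the laminin chains LAMA2 (-1.71 ± 0.42), LAMB1 (-1.16 ± 0.21) and LAMC1 and the nidogen NID2.

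The machinery that folds and trims collagen followed. 23 of 29 tested genes of collagen folding and secretion were higher and 1, the lysyl hydroxylase PLOD1, lower (median 1.25). PCOLCE2, an enhancer of procollagen processing, had 431, 459, 356 and 504 CPM in valves C38, C42, C43 and C45, against 11.9, 12.7 and 13.3 CPM in myocardium C42, C43 and C49 (log2 change 5.11 ± 0.24, adjusted p = 1.45e-05), and the 7 values formed a pair of tight groups. P4HA3, a prolyl hydroxylase subunit, had 253 reads over the 4 valves and 1 over the 3 myocardium libraries, a ratio per library size of 162 (exact 95% interval 28.7 to 6404). PPIB, a collagen-folding isomerase, was higher by 1.86 ± 0.31. Of 27 matrix proteases and inhibitors 19 were higher and 1 lower. They included CTSK, the collagen-cleaving cathepsin K (3.77 ± 0.33), TIMP2, a metalloproteinase inhibitor (2.04 ± 0.20), and the serpin SERPINE2 (4.18 ± 0.48). ADAMTSL1 was the exception, at 5.69 to 7.08 CPM in valves and 25.9 to 41.6 CPM in myocardium (-2.38 ± 0.20).

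Among genes of cartilage with enough reads to be tested, most were higher in the resting valve, whereas the bone regulator RUNX2 was not. 16 of 22 tested genes of the cartilage and bone list were higher and 1 lower, with a median of 4.18. The list found 33 genes, and those not tested had too few reads. Enough reads in valves alone sufficed for a test, so a member near 0 in myocardium could be called only higher. The count and median are partly set by that filter. CNMD, chondromodulin, a cartilage protein that inhibits vessel growth, had 34.3, 97.8, 35.5 and 42 CPM in valves C38, C42, C43 and C45, against 0.266, 0 and 0.306 CPM in myocardium C42, C43 and C49 (log2 change 7.98 ± 0.72, adjusted p = 0.000178). CHAD, chondroadherin, had 110.1, 157, 89.6 and 166 CPM in valves C38, C42, C43 and C45, against 4.35, 4.0 and 3.18 CPM in myocardium C42, C43 and C49 (5.09 ± 0.31). Valve C42 held the highest CNMD level, and no value of either gene overlapped, which for CNMD the ranking required. SOX9, the master transcription factor of cartilage, had 6.99, 5.88, 10.7 and 3.97 CPM in valves C38, C42, C43 and C45, against 0.533, 0.897 and 0.918 CPM in myocardium C42, C43 and C49 (3.11 ± 0.43). FRZB, a secreted WNT antagonist named for its role in cartilage, was higher by 5.23 ± 0.24. RUNX2, the transcription factor that starts bone formation, had 2.04, 0.936, 2.68 and 1.79 CPM in valves C38, C42, C43 and C45, against 1.86, 2.37 and 6.18 CPM in myocardium C42, C43 and C49. Its groups overlapped and the test did not pass (-0.92 ± 0.51, adjusted p = 0.173). PHEX, an endopeptidase of phosphate balance in bone, was the 1 member called lower (-1.56 ± 0.54). Leaving out 1 library ended the call of PHEX (adjusted p = 0.106 without valve C38, 0.0690 without valve C42, 0.0883 without valve C45, 0.154 without myocardium C42 and 0.105 without myocardium C43).

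Several genes that hold mineralisation back were also higher. Of 15 tested genes of mineralisation control and phosphate handling 9 were higher and 2 lower. TNFRSF11B, osteoprotegerin, the decoy receptor that blocks osteoclast formation, had 29.8, 22.6, 26 and 31.1 CPM in valves C38, C42, C43 and C45, against 0.0888, 0.0816 and 0.184 CPM in myocardium C42, C43 and C49 (log2 change 7.68 ± 0.32, adjusted p = 1.10e-05). MGP, matrix Gla protein, an inhibitor of soft tissue calcification, had 2401, 1599.9, 1151 and 2160.5 CPM in valves C38, C42, C43 and C45, against 136, 179 and 394 CPM in myocardium C42, C43 and C49 (2.95 ± 0.47). The 4 valves lay close together for TNFRSF11B, while myocardium C49 was the highest myocardium library for MGP. SPP1, osteopontin, a phosphoprotein that binds mineral, had 189, 94.1, 104 and 116 CPM in valves C38, C42, C43 and C45, against 0.444, 1.71 and 3.86 CPM in myocardium C42, C43 and C49 (5.91 ± 0.63). The 2 lower genes were PHOSPHO1, a phosphatase of mineralising cells (-2.18 ± 0.56), and the phosphate transporter SLC20A2 (-1.31 ± 0.38). The calls of SLC20A2 (adjusted p = 0.0645 without valve C38, 0.0520 without valve C42, 0.0514 without valve C45, 0.0777 without myocardium C42 and 0.0792 without myocardium C43) and PHOSPHO1 (adjusted p = 0.0526 without myocardium C42) did not hold without single libraries.

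Interstitial cell genes were higher in valves, and transcription factors of valve formation were split. 21 of 23 tested interstitial and fibroblast genes were higher and 1 lower, WT1 (median 2.49). PRRX1, a homeobox gene of mesenchyme, had 104, 100.1, 100.5 and 91.9 CPM in valves C38, C42, C43 and C45, against 3.20, 4.65 and 5.08 CPM in myocardium C42, C43 and C49 (log2 change 4.51 ± 0.21, adjusted p = 1.45e-05). VIM, vimentin, the intermediate filament of mesenchymal cells, had 4271, 4588, 3494 and 4284 CPM in valves C38, C42, C43 and C45, against 433, 471 and 850.00 CPM in myocardium C42, C43 and C49 (2.83 ± 0.36). All 4 valves were close together for both genes. Of 36 tested transcription factors of valve development 15 were higher, 4 lower and 17 not called. MKX, mohawk, a tendon factor, was higher by 4.43 ± 0.61. NFATC1, which marks endocardial cushion endothelium during development, had 29.8, 26.2, 33.1 and 31.6 CPM in valves C38, C42, C43 and C45, against 41.5, 43.4 and 27.5 CPM in myocardium C42, C43 and C49. Its groups overlapped (-0.31 ± 0.19, adjusted p = 0.211). NKX2-5, the cardiac homeobox factor, had 24, 12.5, 52.7 and 41.3 CPM in valves C38, C42, C43 and C45, against 158, 172 and 119.8 CPM in myocardium C42, C43 and C49 (-2.20 ± 0.43), and its low valve, C42, and high valve, C43, were also the valves with the lowest and highest sarcomere shares. TBX5, a T-box factor of the heart, changed by -1.80 ± 0.42, and TBX3 and KLF2 were the other lower genes. In contrast, TBX20 (-1.14 ± 0.51) and GATA4 (-0.72 ± 0.37) did not pass. TBX20 (log2 change -1.67, adjusted p = 0.0244) and GATA4 (log2 change -1.14, adjusted p = 0.0253) passed with the animal as a block. A call appeared for TBX20 (adjusted p = 0.0422 without valve C43 and 0.0229 without myocardium C49), NFATC1 (adjusted p = 0.0245 without myocardium C49) and GATA4 (adjusted p = 0.00557 without myocardium C49).

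Contractile genes of smooth muscle were higher in valves. 20 of 23 tested smooth muscle and myofibroblast genes were higher in valves and 2 lower, with a median of 3.17. The list took 3.30% to 5.67% of valve reads and 0.593% to 0.676% of myocardial reads. These shares include TPM1, also a gene of heart muscle, at a mean of 4265 CPM in myocardium and 51.0% of that in valves. The myocardial share is therefore not one of smooth muscle alone. ACTA2, smooth muscle actin, had 6504, 9612, 5778 and 7353 CPM in valves C38, C42, C43 and C45, against 55.3, 55.1 and 246 CPM in myocardium C42, C43 and C49 (log2 change 5.94 ± 0.74, adjusted p = 0.000731). MYH11, smooth muscle myosin, had 6348, 11398, 7471 and 6403 CPM in valves C38, C42, C43 and C45, against 186, 161 and 697 CPM in myocardium C42, C43 and C49 (4.51 ± 0.68). For both genes valve C42 was highest among valves and myocardium C49 highest in myocardium, and the groups stayed far apart. ITGA8, an integrin of contractile mesenchyme, was higher by 6.56 ± 0.53, and ACTG2, enteric smooth muscle actin, by 6.21 ± 0.68. Actin genes are near-identical in their coding parts, so the split of reads between ACTA2, ACTG2 and the cardiac actin ACTC1 is uncertain. Against chow-fed ascending aorta, a wall of smooth muscle, ACTA2 did not pass (valve minus aorta -0.85 ± 0.50, adjusted p = 0.244) and MYH11 was lower in valves (-1.79 ± 0.51, adjusted p = 0.0303), a call lost without any 1 of valves C38, C43 and C45 or of the 3 aortas (adjusted p = 0.0584 to 0.0993). The 4 smooth muscle markers summed to 15639 to 25785 CPM in valves and 274 to 1207 CPM in myocardium. The part of these cells in the matrix results was not tested. The 2 lower members of the list, TPM1 (-0.97 ± 0.29) and PLN, phospholamban (-2.10 ± 0.63), are also genes of heart muscle. The fit with the animal as a block did not call TPM1 (adjusted p = 0.311). Single libraries decided the calls of TPM1 (adjusted p = 0.0867 without valve C38, 0.0728 without valve C45, 0.0808 without myocardium C42 and 0.0706 without myocardium C43) and PLN (adjusted p = 0.0754 without valve C38, 0.0645 without valve C42, 0.0713 without valve C45, 0.0800 without myocardium C42 and 0.0866 without myocardium C43).

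Pericyte genes were split, with 6 of 13 higher and 5 lower. RGS5, a regulator of G-protein signalling in mural cells, had 4771, 4712, 5276 and 3994 CPM in valves C38, C42, C43 and C45, against 375, 341 and 320.3 CPM in myocardium C42, C43 and C49 (log2 change 3.76 ± 0.31, adjusted p = 0.000123), and MCAM was higher by 3.28 ± 0.43. The lower genes were the potassium channel subunit ABCC9 (-1.54 ± 0.26), also found in cardiomyocytes, HIGD1B (-1.59 ± 0.32), NOTCH3, COX4I2 and NDUFA4L2.

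Endothelial genes were lower in the valve as a class. Of 23 tested genes shared by endothelial cells 19 were lower, with a median of -1.62. KDR, the main VEGF receptor, had 35.2, 18.8, 41.4 and 39.1 CPM in valves C38, C42, C43 and C45, against 219, 140.4 and 278 CPM in myocardium C42, C43 and C49 (log2 change -2.66 ± 0.33, adjusted p = 0.000663). PECAM1, an adhesion molecule at endothelial junctions, had 70.5, 39.3, 75.1 and 61.5 CPM in valves C38, C42, C43 and C45, against 160.05, 139.6 and 213 CPM in myocardium C42, C43 and C49 (-1.47 ± 0.25). Valve C42 was the lowest library for both genes, and no valve reached the lowest myocardium library. CDH5, VE-cadherin, changed by -2.21 ± 0.25, FLT1, a second VEGF receptor, by -2.51 ± 0.30 and VWF, von Willebrand factor, by -1.47 ± 0.30. VEGFA, the growth factor that these receptors bind, had 117, 42, 134 and 104 CPM in valves C38, C42, C43 and C45, against 636, 453 and 966 CPM in myocardium C42, C43 and C49 (-2.79 ± 0.42). Capillary genes followed, with 9 of 15 lower and 2, TIMP4 and KCNE3, higher. TCF15 (-2.80 ± 0.36) and BTNL9 (-2.55 ± 0.45), both found in capillary endothelium, changed most, while CAV1, caveolin 1, did not pass (-0.20 ± 0.20, adjusted p = 0.450). The list of valve and endocardial endothelium had 10 of 17 higher, among them the forkhead factor FOXC1 (3.38 ± 0.33), but its largest rises, HAPLN1 and POSTN, are also matrix genes of interstitial cells. PROX1, a factor of lymphatic and valve endothelium that cardiomyocytes also express, was lower at 9.78 to 42.9 CPM in valves and 81.2 to 134 CPM in myocardium (-2.16 ± 0.43).

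Among other cell types, macrophage genes were modestly higher. 10 of 18 tested macrophage genes were higher (median 1.33), a count of 6 without myocardium C42. LYVE1, a receptor of resident macrophages and lymphatic vessels, was higher by 2.37 ± 0.24, CSF1R, the colony stimulating factor receptor, by 1.51 ± 0.30 and C1QB, a subunit of complement C1q, by 1.96 ± 0.28. CD68, a lysosomal macrophage marker, had 20.7, 10.7, 7.53 and 15.2 CPM in valves C38, C42, C43 and C45, against 3.37, 5.63 and 5.69 CPM in myocardium C42, C43 and C49 (1.46 ± 0.37). Lymphocyte markers were close to 0, with a summed level of 0.260 to 0.778 CPM in valves and 1.06 to 5.32 CPM in myocardium. Schwann cell and neural genes had 9 of 18 higher. Blocking on the animal ended the call of CD68 (adjusted p = 0.0796). CD68 (adjusted p = 0.0539 without myocardium C42) lost the call when a library was left out.

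Adipocyte genes did not move together. 4 of 12 tested were higher, CIDEA, LEP, LIPE and PPARG, and 1 lower, LPL, against 22.2% and 21% of all genes tested. CIDEA, a lipid droplet protein of thermogenic fat, had 100.1, 69, 31.4 and 98.4 CPM in valves C38, C42, C43 and C45, against 2.04, 0.0816 and 1.47 CPM in myocardium C42, C43 and C49 (log2 change 5.95 ± 0.74, adjusted p = 0.000731), and LEP, leptin, had 8.54, 10.8, 4.08 and 17.1 CPM in valves C38, C42, C43 and C45, against 1.15, 0 and 0.184 CPM in myocardium C42, C43 and C49 (4.56 ± 0.91). Both were above every myocardium library, while FABP4, a fatty acid carrier of adipocytes and capillaries, did not pass (0.77 ± 0.47, adjusted p = 0.209). Keratins of surface epithelium were at 1.34 to 7.18 CPM in valves and 0.184 to 0.976 CPM in myocardium for KRT19 (2.98 ± 0.78) and higher by 2.21 ± 0.58 for KRT18. KRT18 (adjusted p = 0.130) did not pass once the animal was a block. With 1 library fewer, KRT19 (adjusted p = 0.0568 without myocardium C43) no longer passed. FABP4 (adjusted p = 0.0421 without myocardium C49) passed when a library was left out.

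**Figure D3:**
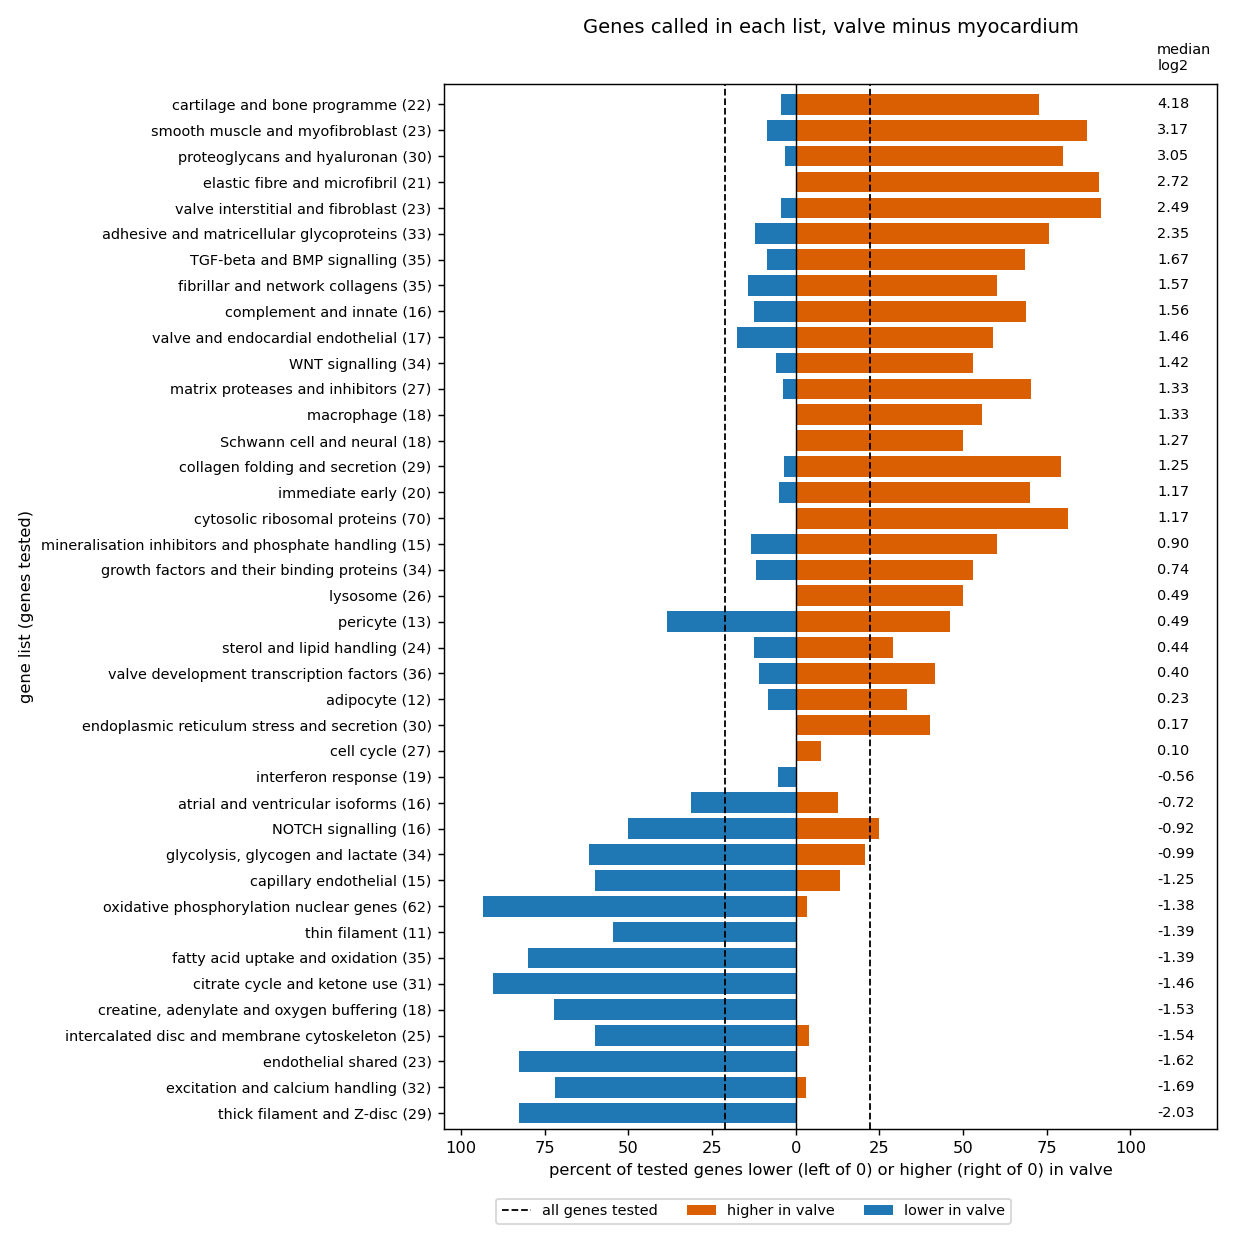
Share of tested genes called higher (orange, to the right) and lower (blue, to the left) in valves, for each gene list with at least 10 tested genes, ordered by median log2 change, which is printed at the right. The dashed lines mark the shares over all genes tested, 22.2% higher and 21% lower. Matrix, cartilage and smooth muscle lists stand at the top with most genes higher, and endothelial, sarcomere and mitochondrial lists at the bottom with most genes lower.

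Signalling genes of the TGF-beta, BMP and WNT families were mostly higher, whereas NOTCH genes were split. Of 35 tested TGF-beta and BMP genes 24 were higher and 3 lower (median 1.67). SMAD9, which relays BMP signals, had 67.3, 69, 76 and 64.8 CPM in valves C38, C42, C43 and C45, against 1.15, 0.571 and 2.08 CPM in myocardium C42, C43 and C49 (log2 change 5.72 ± 0.37, adjusted p = 5.31e-05), and ID4, an inhibitor of differentiation induced by BMPs, had 109.7, 145, 90.8 and 145 CPM in valves C38, C42, C43 and C45, against 2.13, 0.897 and 5.08 CPM in myocardium C42, C43 and C49 (5.46 ± 0.55). Myocardium C49 was the highest of the myocardium libraries for both. The lower genes were 3 receptors, ENG (-1.60 ± 0.27) and ACVRL1 (-1.15 ± 0.17) of endothelium and BMPR2. In WNT signalling 18 of 34 were higher and 2 lower. RSPO2, an R-spondin that amplifies WNT signals, had 511 reads over the 4 valves and 1 over the 3 myocardium libraries, a ratio per library size of 326 (exact 95% interval 58.3 to 12909). The ligand WNT16 had 6.44, 0.624, 2.53 and 6.77 CPM in valves C38, C42, C43 and C45 and no read in myocardium, at least 54.4-fold higher by the floor of 3 reads. The lower genes were WNT5A, a non-canonical ligand (-2.25 ± 0.55), and NKD2.

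In the NOTCH pathway 8 of 16 tested genes were lower and 4 higher, against 21% and 22.2% of all genes tested. NOTCH1, a receptor whose mutations cause bicuspid and calcified aortic valves in people, had 3.65, 1.92, 7.74 and 2.18 CPM in valves C38, C42, C43 and C45, against 62.8, 43.9 and 48.3 CPM in myocardium C42, C43 and C49 (log2 change -3.74 ± 0.46, adjusted p = 0.000655). Its ligand JAG2 had 26.4, 16.8, 32.9 and 26.1 CPM in valves C38, C42, C43 and C45, against 113, 103 and 142 CPM in myocardium C42, C43 and C49 (-2.23 ± 0.24). Valve C43 was highest among the valves for both, and no valve came near the lowest myocardium library. NOTCH3, the receptor of mural cells, changed by -1.19 ± 0.19, whereas NOTCH2 was higher by 1.17 ± 0.18 and RBPJ, the DNA-binding partner of all NOTCH receptors, by 1.69 ± 0.18. HEY2 and MAML2 were the remaining higher genes. The 5 endothelial markers, of which 4 were lower, summed to 151 to 321 CPM in valves and 655 to 861 CPM in myocardium. Their part in the NOTCH1 result was not tested. Among growth factors and their binding proteins 18 of 34 were higher and 4 lower. CCN2, connective tissue growth factor, was higher by 4.50 ± 0.35 and FGFR2 by 5.17 ± 0.40, while FGF1 changed by -1.97 ± 0.39 and PDGFB, VEGFA and VEGFB were also lower.

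Complement genes were higher in the valve. 11 of 16 tested genes of complement and innate defence were higher and 2 lower. MASP1, a protease of the lectin pathway, had 82.3, 64.5, 67.7 and 78.5 CPM in valves C38, C42, C43 and C45, against 0.266, 0.490 and 0.612 CPM in myocardium C42, C43 and C49 (log2 change 7.26 ± 0.28, adjusted p = 1.06e-05). It was present in every valve and close to 0 in myocardium. C1R (2.25 ± 0.37), C1S (1.79 ± 0.37) and their inhibitor SERPING1 (2.48 ± 0.46) were higher as well, and CFI, a cofactor-dependent protease, was lower (-1.31 ± 0.39), as was CD55. Immediate early genes, the first to respond to growth factor and stress signals, had 14 of 20 higher and 1 lower. ATF3 had 27.2, 182, 87.9 and 123 CPM in valves C38, C42, C43 and C45, against 8.26, 13.6 and 5.94 CPM in myocardium C42, C43 and C49 (3.50 ± 0.63), and valve C38 was the lowest of the valves. FOS was higher by 2.41 ± 0.43 and JUN by 1.77 ± 0.25, and KLF2, a shear stress factor of endothelium, was lower (-0.91 ± 0.20). Leaving out 1 library ended the call of CFI (adjusted p = 0.0530 without valve C38, 0.0542 without valve C45 and 0.0803 without myocardium C49).

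Sarcomere genes were lower in valves. Of 29 tested genes of the thick filament and Z-disc 24 were lower (median -2.03), and of 11 thin filament genes 6 were lower (median -1.39). MYH7, the main myosin heavy chain of the ventricle, had 6661, 2742, 16368 and 6669 CPM in valves C38, C42, C43 and C45, against 77466, 72584 and 38648 CPM in myocardium C42, C43 and C49 (log2 change -2.96 ± 0.67, adjusted p = 0.00910). TTN, titin, had 743, 299.8, 2740.3 and 854 CPM in valves C38, C42, C43 and C45, against 9767, 10219 and 4475 CPM in myocardium C42, C43 and C49 (-2.81 ± 0.71). Valve C43 was the highest valve and myocardium C49 the lowest myocardium library for both, and the tissues did not overlap. MYL2, the ventricular regulatory light chain, had 2583, 1170.2, 5499.7 and 5036 CPM in valves C38, C42, C43 and C45, against 13140.5, 12277 and 12829.7 CPM in myocardium C42, C43 and C49 (-1.84 ± 0.53). TNNT2, cardiac troponin T, changed by -1.60 ± 0.33 and TNNC1, troponin C, by -2.02 ± 0.48. MYH6 and MYH7 share long stretches of sequence, so reads can be split between them. These counts depended on which libraries were in the fit. The thick filament count was 14 without valve C38, 14 without myocardium C42 and 15 without myocardium C43. The thin filament count was 2 without valve C38, valve C45, myocardium C42 or myocardium C43, and 3 with the animal as a block. With the animal as a block, the calls of MYH7 (log2 change -3.48, adjusted p = 0.267), TTN (-3.46, adjusted p = 0.0745), MYL2 (-2.32, adjusted p = 0.193), TNNT2 (-1.78, adjusted p = 0.126) and TNNC1 (-2.37, adjusted p = 0.0999) were lost. Each of these changes was larger in size than in the main fit, and only animals C42 and C43 inform them. The call of MYL2 (adjusted p = 0.0762 without valve C38, 0.0554 without myocardium C42 and 0.0530 without myocardium C43) did not hold without single libraries.

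Genes of excitation and calcium handling and of the intercalated disc went the same way. 23 of 32 calcium handling genes were lower and 1 higher. The lower count was 15 without valve C38, 14 without myocardium C42 and 14 without myocardium C43. RYR2, the calcium release channel, had 136, 72.2, 365 and 150.1 CPM in valves C38, C42, C43 and C45, against 1778, 1705 and 909 CPM in myocardium C42, C43 and C49 (log2 change -3.02 ± 0.54, adjusted p = 0.00320). Of 25 genes of the intercalated disc and membrane cytoskeleton 15 were lower and 1 higher, with 9 lower without valve C38, 9 without valve C45, 8 without myocardium C42 and 9 without myocardium C43. SPTB, a spectrin, changed by -2.79 ± 0.59 and DSP, desmoplakin, by -2.94 ± 0.71. VCL, vinculin, an adhesion protein shared with smooth muscle, was the 1 gene that was higher (1.64 ± 0.33).

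Atrial genes gave no clear picture. MYL4, the atrial essential light chain, had 6.0, 1.66, 7.60 and 5.06 CPM in valves C38, C42, C43 and C45, against 1.86, 1.22 and 0.245 CPM in myocardium C42, C43 and C49 (log2 change 2.22 ± 0.70, adjusted p = 0.0329), and the valve with the lowest value lay within the myocardial range. NPPA, atrial natriuretic peptide, was near 0 in both tissues (0.248 to 2.46 CPM in valves and 0.0612 to 0.816 CPM in myocardium) and did not pass (1.61 ± 0.92, adjusted p = 0.186). MYH6, the atrial and fast myosin, had 128, 35.3, 814 and 157 CPM in valves C38, C42, C43 and C45, against 282, 3737 and 1156 CPM in myocardium C42, C43 and C49. Myocardium C43 and C42 differed more than 10 times in this gene, and the test did not pass (-2.61 ± 1.09, adjusted p = 0.0832). The fit with the animal as a block did not call MYL4 (adjusted p = 0.222). Blocking on the animal brought a call for MYH6 (log2 change -2.60, adjusted p = 0.0183). Single libraries decided the call of MYL4 (adjusted p = 0.0712 without valve C38, 0.0642 without valve C43, 0.0611 without valve C45, 0.0794 without myocardium C43 and 0.0542 without myocardium C49). A call appeared for MYH6 (adjusted p = 0.0141 without valve C43).

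Genes of energy metabolism were mostly lower in valves. Of 62 tested nuclear genes of oxidative phosphorylation 58 were lower and 2 higher, with a median of -1.38. The higher genes were COX6A1 and COX8A, and the 4 lower genes past the 2-fold test were CYC1, NDUFS7, NDUFV1 and ATP5F1D. In the 4 libraries of animals C42 and C43 alone, with the animal as a block, 35 were lower. CYC1, cytochrome c1, had 152, 99.4, 270.5 and 248 CPM in valves C38, C42, C43 and C45, against 840.01, 732 and 692 CPM in myocardium C42, C43 and C49 (log2 change -1.97 ± 0.35, adjusted p = 0.00312). ATP5F1B, the catalytic subunit of ATP synthase, changed by -1.78 ± 0.45 and COX4I1, a subunit of cytochrome c oxidase, by -1.44 ± 0.26. In fatty acid uptake and oxidation 28 of 35 were lower. LPL, lipoprotein lipase, had 559, 179.9, 896 and 487 CPM in valves C38, C42, C43 and C45, against 2702, 2608 and 1299 CPM in myocardium C42, C43 and C49 (-2.05 ± 0.51), and FABP3, the heart fatty acid binding protein, changed by -2.22 ± 0.52. In the citrate cycle and ketone use 28 of 31 were lower, with IDH2, an isocitrate dehydrogenase, at -1.79 ± 0.36. Of 18 genes of creatine, adenylate and oxygen buffering 13 were lower, among them CKMT2, the sarcomeric mitochondrial creatine kinase, at 159, 56.3, 508 and 370.3 CPM in valves C38, C42, C43 and C45, against 1329, 1630.3 and 1039 CPM in myocardium C42, C43 and C49 (-2.29 ± 0.63). MB, myoglobin, did not pass (-1.61 ± 0.58, adjusted p = 0.0528). Blocking on the animal ended the calls of ATP5F1B (adjusted p = 0.0775) and COX4I1 (adjusted p = 0.0867). MB (log2 change -2.34, adjusted p = 0.0455) passed with the animal as a block. CKMT2 (adjusted p = 0.0582 without valve C38 and 0.0565 without myocardium C43) lost the call when a library was left out. MB (adjusted p = 0.0257 without valve C43 and 0.0203 without myocardium C49) passed when a library was left out.

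Glycolysis was mixed. 21 of 34 tested genes of glycolysis, glycogen and lactate were lower and 7 higher, against 21% and 22.2% of all genes tested. The lower count was 11 without myocardium C42 and 12 without myocardium C43. The lower genes included PFKM, muscle phosphofructokinase (-2.28 ± 0.51), ENO3, muscle enolase (-2.03 ± 0.47), and PGAM2, muscle phosphoglycerate mutase (-2.22 ± 0.44). Higher were ALDOC, an aldolase best known from brain, at 61.6, 48, 22.6 and 81.8 CPM in valves C38, C42, C43 and C45, against 3.91, 2.37 and 3.98 CPM in myocardium C42, C43 and C49 (3.96 ± 0.47), and PYGL, liver glycogen phosphorylase, at 12.1, 15.7, 8.94 and 9.57 CPM in valves C38, C42, C43 and C45, against 0.621, 0.326 and 1.10 CPM in myocardium C42, C43 and C49 (4.03 ± 0.42). GAPDH, often used as a constant reference, was itself lower in valves (-1.13 ± 0.34). GAPDH (adjusted p = 0.207) did not pass once the animal was a block. With 1 library fewer, GAPDH (adjusted p = 0.0879 without valve C38, 0.0507 without valve C42, 0.0694 without valve C45, 0.0777 without myocardium C42 and 0.0937 without myocardium C43) no longer passed.

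Many enzymes and structural proteins exist as a muscle form and a form of wider use. The ratio of a pair within a library does not depend on scaling, apart from the 0.1 CPM added to each, which matters for low genes. The ratio of muscle to broad form was lower in every valve than in every myocardium library in 17 of 19 pairs with data. Each of these had an exact two-sided permutation p of 0.0571, the smallest that 4 against 3 libraries allow. The pairs were chosen as muscle and broad forms, and no such count was made over other pairs of genes. Many of the paired genes are members of the lists above, such as the broad forms LMOD1, MYL9, FLNA and VIM. The count of pairs therefore partly repeats those lists. COX6A2 to COX6A1, a cytochrome c oxidase subunit, had a log2 ratio of 0.66 ± 1.16 in valves (SD, n = 4) and 4.25 ± 0.47 in myocardium (SD, n = 3). In this pair the muscle form fell (-1.63 ± 0.43) and the broad form rose (1.78 ± 0.23), both tested across all genes. For LMOD2 to LMOD1, leiomodins of heart and smooth muscle, the log2 ratio was -3.02 ± 1.66 in valves (SD, n = 4) and 5.37 ± 1.70 in myocardium (SD, n = 3). For DES to VIM, the intermediate filaments desmin and vimentin, it was -3.10 ± 1.07 in valves (SD, n = 4) and 1.39 ± 1.56 in myocardium (SD, n = 3). ACTN2 to ACTN1, the alpha-actinins, stood at 0.16 ± 1.36 in valves (SD, n = 4) and 5.90 ± 1.38 in myocardium (SD, n = 3). LDHB to LDHA, the lactate dehydrogenase subunits, was among the 17, but LDHA was listed at 0.934 to 2.75 CPM in valves and 0.245 to 0.571 CPM in myocardium, so that this ratio rests on few reads. PYGL, the broad form of another of the 17 pairs, was also low in myocardium, as given above. FABP3 to FABP5, fatty acid binding proteins, stood at 2.89 ± 0.99 in valves (SD, n = 4) and 3.88 ± 1.03 in myocardium (SD, n = 3) and overlapped, as did MB to CYGB, myoglobin and cytoglobin, at 2.34 ± 1.18 in valves (SD, n = 4) and 4.31 ± 1.05 in myocardium (SD, n = 3). Leaving out 1 library ended the call of COX6A2 (adjusted p = 0.0518 without valve C38).

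**Figure D4:**
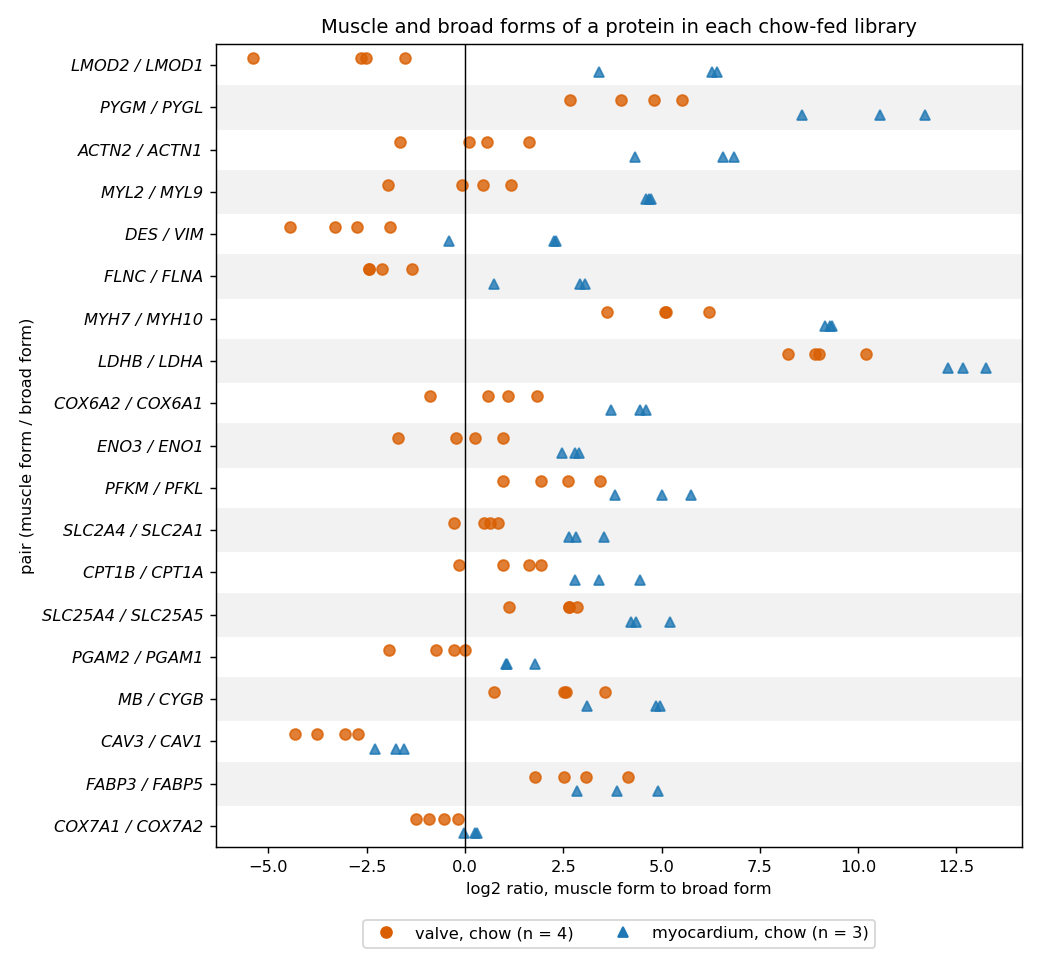
Log2 ratio of the muscle form to the broad form of a protein in each library, for the 19 pairs with both genes in the tables (0.1 CPM added to each). Orange circles are the 4 valves, drawn above the blue triangles of the 3 myocardium libraries. Ratios lie lower in every valve than in every myocardium library, except for FABP3 to FABP5 and MB to CYGB, where the tissues overlap.

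Ribosomal protein genes were higher by small steps, and genes of secretion and lysosomes were divided between higher and not called. Of 70 tested cytosolic ribosomal protein genes 57 were higher in valves (median 1.17, 1, RPS27, past the 2-fold test). The count was 35 with the animal as a block and 24 without myocardium C42 or without myocardium C43. Ribosomal protein genes have many processed copies that can take their reads. RPS4X had 1560.2, 1833, 1026 and 1528 CPM in valves C38, C42, C43 and C45, against 385, 358 and 618 CPM in myocardium C42, C43 and C49 (log2 change 1.71 ± 0.32, adjusted p = 0.00401). In the endoplasmic reticulum list 12 of 30 were higher, a count of 7 without valve C42 and 6 without myocardium C42, with XBP1, a transcription factor of secretory cells, at 1.48 ± 0.21. In the lysosome list 13 of 26 were higher, 6 with the block. Of 27 cell cycle genes 2 were higher, PCNA and TYMS, and of 19 interferon response genes 1 was lower, OAS1. Of 24 genes of sterol and lipid handling 7 were higher and 3 lower, INSIG1, ABCG1 and CD36, against 22.2% and 21% of all genes tested. The apolipoprotein APOE was at 2.31 ± 0.57. The higher count of this list was 4 without valve C38, 4 without valve C42 and 3 without myocardium C43.

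The same tissue contrast was made in other libraries of the series, 4 valves taken after 7 weeks on a diet with 1% cholesterol and ergocalciferol (vitamin D2) against 3 myocardium libraries of diet-fed animals whose time on the diet the labels do not give. All 3 of those animals also gave a 7-week valve. No library was shared with the chow comparison. Of 15425 genes tested, 3891 were higher (25.2%) and 3686 lower (23.9%). Of the 3235 genes higher in chow-fed valves and tested again, 2325 were also higher in the diet libraries (71.9%) and 2, ANTXR2 and CREB5, lower. Of 3092 lower genes, 2201 were lower again (71.2%) and 24 higher. Among diet calls also tested in chow, the shared genes made up 65.6% of 3543 upward and 60.6% of 3631 downward. Across 14624 genes the log2 changes correlated at r = 0.838, a value across genes, which are not independent replicates.

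The 24 ranked genes had the same direction in the diet libraries, and all 24 were called there. FMOD was higher by 6.41 ± 0.68, CNMD by 7.06 ± 0.78 and HAPLN1 by 8.98 ± 0.54, while SHANK3 (-3.97 ± 0.31), NOTCH1 (-4.13 ± 0.41) and CDH23 (-3.99 ± 0.46) were lower. Of the genes higher in chow-fed valves, 71.9% were higher in the diet libraries too. For proteoglycan genes the count was 23 of 24, for elastic fibre genes 17 of 19 and for the cartilage and bone list 14 of 16. Of those lower in chow-fed valves, 71.2% were lower there too. For shared endothelial genes the count was 14 of 19 and for thick filament and Z-disc genes 19 of 24, a little above that share. Oxidative phosphorylation had 19 genes lower in the diet libraries, against 58 in the chow libraries. Cell cycle genes had 20 higher in the diet libraries, against 2 in the chow libraries, and macrophage genes 17, against 10. Whether these counts differ between the diets was not tested. SOX9 did not pass with diet (0.73 ± 0.55), and MYH6 was higher there (2.94 ± 0.92, adjusted p = 0.0269), a call lost without the first or the third diet myocardium library (adjusted p = 0.0800 and 0.0875). The difference of the tissue contrast itself, diet minus chow, passed for 46 genes upward (0.286%) and 22 downward (0.137%) of 16068 tested. It did not pass for SOX9 (adjusted p = 0.178) or MYH6 (adjusted p = 0.126). It passed for PCOLCE2 (-2.0 ± 0.24, adjusted p = 0.00574) and MASP1 (-2.32 ± 0.37, adjusted p = 0.0213), whose difference between the tissues was smaller in diet-fed animals. Without the second diet myocardium library MASP1 did not pass (adjusted p = 0.0673). The count of 68 rested on single libraries. It was 142 without myocardium C42 and 119 without valve C38, but 23 without valve C42, 30 without valve C43, 22 without valve C45 and 14 without myocardium C49. Among diet libraries it was 19 without the third valve, 22 without the fourth valve, 5 without the second and 13 without the third myocardium library. DESeq2 gave 548. Animals that gave both tissues are not paired in that test. With the animal as a fixed block, edgeR called 0 genes (1508 at an unadjusted p under 0.05), with an adjusted p of 0.150 for PCOLCE2 and 0.101 for MASP1. With the animal as a random block, limma voom called 229, PCOLCE2 (adjusted p = 0.00206) and MASP1 (adjusted p = 0.0415) among them. Both blocks were chosen after seeing the data.

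**Figure D5:**
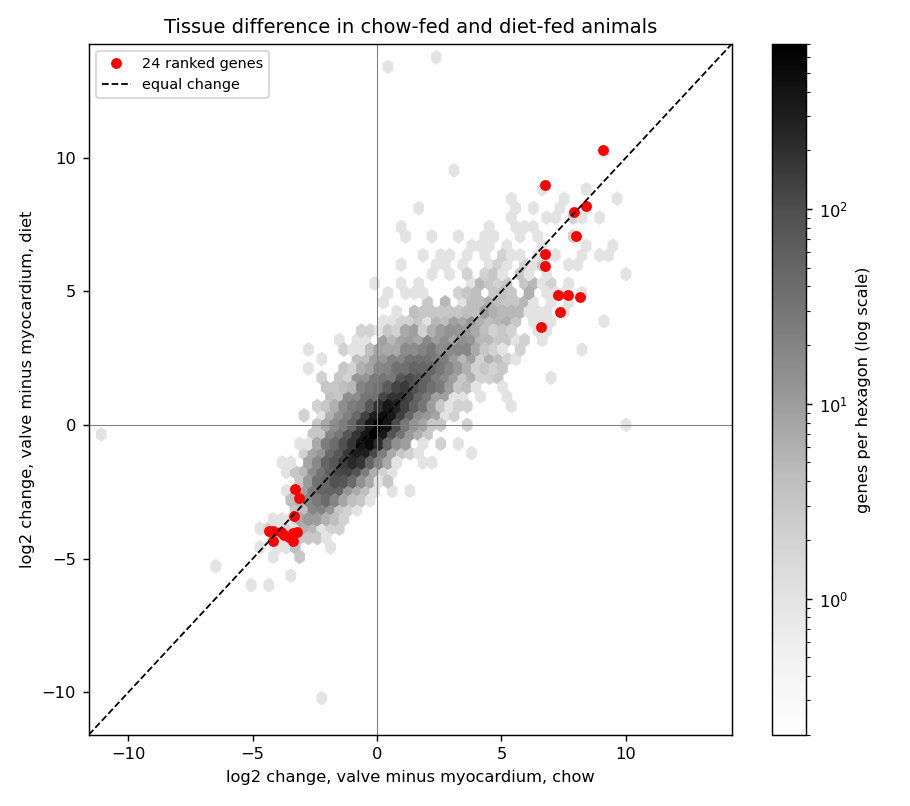
Log2 change, valve minus myocardium, in chow-fed animals (x axis) and in diet-fed animals (y axis) for the 14624 genes tested in both. Grey shading gives the number of genes per hexagon on a log scale, red points are the 24 ranked genes (12 largest rises and 12 largest falls in chow), and the dashed line marks equal change. All 24 red points lie in the same quadrant in both comparisons.

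The ascending aorta, in 3 chow-fed libraries, gave a further tissue. That comparison shares the control valves with the one above, so values are only set side by side. Of 15281 genes tested, 1992 were higher in valve than in aorta (13%) and 1405 lower (9.19%). The count of 3397 fell to 2178 without valve C38, 2045 without valve C45, 2229 without the first and 1795 without the second aorta library. FMOD stood at a log2 difference of -0.21 ± 0.45 (valve minus aorta, adjusted p = 0.773), ELN at -0.34 ± 0.39 (adjusted p = 0.562) and PRRX1 at -0.02 ± 0.19 (adjusted p = 0.943), none of which passed. MASP1 (1.53 ± 0.33, adjusted p = 0.0101), P4HA3 (3.31 ± 0.58, adjusted p = 0.00454) and CELSR1 (4.54 ± 0.85, adjusted p = 0.00580) were higher in valve than in aorta. ST6GAL2 (-1.87 ± 0.38, adjusted p = 0.00767), EDIL3 (-1.47 ± 0.34, adjusted p = 0.0131) and SMAD9 (-1.46 ± 0.25, adjusted p = 0.00377) were lower in valve than in aorta. SHANK3 (-0.06 ± 0.52) and NOTCH1 (-0.57 ± 0.44), both lower in valve than in myocardium, did not pass against aorta.

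The study took 346 genes out of its valve table as myocardial. Of the 314 that could be tested here, 140 were lower in chow-fed valves than in myocardium, 1, THRSP, was higher and 173 were not called, with a median log2 change of -1.42. The table that remained still held 2995 of the genes called lower in valves, and 508 of the 553 past the 2-fold test. The remaining table held all 40 tested sarcomere genes, 30 of them called lower in valves, and also NOTCH1, KDR and PECAM1.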

How the data were processed

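RNA of rabbit aortic valve, myocardium and ascending aorta was sequenced as single-end reads of 100 bases from a strand-specific kit, per the labels' protocols. The deposited values are expected counts per gene, made by the authors with RSEM 1.3.3 and, in an order not given, STAR 2.7.8a, Trim Galore 0.6.6, FastQC 0.11.9 and edgeR 3.42.4, per the submitters' processing notes. The sources used here name neither the genome build nor the strand setting of the counting, so reads of overlapping antisense genes may not be separated. Between 9.23% and 10.2% of values in a library were not whole, and all were rounded.

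The 4 chow-fed valves and 3 chow-fed myocardium libraries were fitted together in R 4.3.3 with the quasi-likelihood test of edgeR 4.0.16 after TMM scaling. Low genes were removed with filterByExpr (count at least 10, total at least 15). Enough reads in a single tissue kept a gene in the test. Every adjusted p is a Benjamini-Hochberg value over all genes tested, called under 0.05, and values after ± are SE unless named SD. The 2-fold test was glmTreat. Diet, aorta and difference-of-contrast fits were made the same way. A gene with no read in a group was set to a floor of 3 counts over that group. Form pairs had 0.1 CPM added and an exact permutation test. DESeq2 1.42.0, limma 3.58.1 (voom), other scalings and filters, the animal as a block and each library left out were the alternatives. The edgeR, DESeq2 and voom steps were tested on simulated data. Figures were drawn in Python 3.11.15.

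Same-animal libraries pair by the library names. The correlation of deviations from the group means was 0.240 for C42 and 0.443 for C43, against -0.399 to 0.246 between different animals. No libraries were duplicates, with a chi-square per gene of 23.7 to 181 within a tissue. The libraries of a tissue carry different animal codes, and p-values measure only the spread between these samples. Intervals and floors cover counting error only.

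Gene lists and members were chosen with earlier results of these data known. Of 1260 entries in 46 lists, 1133 matched by symbol, 48 by the gene number in the RefSeq table, and 79 were absent. The list of 13 mitochondrially encoded genes found no symbol and is void. Of 15 tested genes with a KEF51 tag in place of a symbol, 0 were called higher and 0 lower (median log2 change -0.67). Those tagged KEF51_p took 6.83% to 21.0% of counts in valves and 19.8% to 21.5% in myocardium. Whether they are the mitochondrially encoded genes was not tested. Named genes are the 12 largest called rises and 12 largest called falls with a symbol, at least 20 CPM in the higher tissue and no overlap of groups, a chosen set, and in each list the 4 highest in level and up to 2 changing most each way, of which a part is printed. Members of counts of 5 or fewer, with ANTXR2, CREB5, THRSP, NOS2 and IRF8, were chosen after their values were seen. A few genes that the rule would name are not reported here.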

Additional observations from a re-analysis of the deposited data

Results flagged for a closer look

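In 11 of 166 sets of 4 chow-fed valve values, 1 valve stood apart from the other 3, with a gap to its nearest neighbour above 0.829 of the whole range. Chance gives about 1 such set in 20, so 11 of 166 is little above that rate. Valve C43 was the one that stood apart in 5 of them. It was high for MYH6 (814 CPM, against 35.3 to 157 CPM in the other valves, gap 0.844 of the range), PLN (265 against 63.8 to 90.5 CPM, 0.868) and CELSR1 (30.1 against 5.05 to 8.97 CPM, 0.844). It was low for PPIB (134 against 225 to 233 CPM, 0.919) and APOE (155 against 382 to 425 CPM, 0.842). The same valve had the largest share of sarcomere reads, 5.78%, and the part of that share in these values was not tested.

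Valve C42 stood apart for ADRA1A (56.6 CPM, against 14.97 to 20.9 CPM in the others, 0.858), CNMD (97.8 against 34.3 to 42 CPM, 0.878), MCAM (1129 against 671 to 692 CPM, 0.954) and CFI, where it was low (4.84 against 9.71 to 10.2 CPM, 0.908). Valve C38 stood apart for VCAN (535 against 421 to 427 CPM, 0.948) and SERPINE2 (103 against 37.6 to 47.6 CPM, 0.846).

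For 6 of 162 named genes the tissue difference itself differed between diet-fed and chow-fed animals in edgeR's test of that difference, which over all genes passed for 0.286% upward and 0.137% downward. NOS2, IRF8, CREB5 and ANTXR2 were named because their calls with diet and chow were opposite, so the count is no test of how common such differences are. With the animal as a fixed block edgeR called 0 genes over the whole table, and these 6 had adjusted p-values of 0.101 to 0.185. As a random block in limma voom all 6 passed (adjusted p = 0.00206 to 0.0415). NOS2, inducible nitric oxide synthase, was higher in diet-fed valves than in diet-fed myocardium (log2 change 1.95 ± 0.25) and lower in chow-fed valves (-1.59 ± 0.32), a difference of 3.62 ± 0.41 (adjusted p = 0.00574) that passed in each fit that left out 1 library. In chow it had 3.65, 2.34, 3.73 and 3.19 CPM in valves C38, C42, C43 and C45, against 13.5, 5.96 and 9.79 CPM in myocardium C42, C43 and C49, and with the animal as a block the chow call was lost (adjusted p = 0.0554). IRF8, a transcription factor of myeloid cells, was at 1.41 ± 0.30 with diet and -1.37 ± 0.41 with chow, a difference of 2.86 ± 0.55 (adjusted p = 0.0372). Its difference did not pass in 10 of the 14 fits that left out 1 library (adjusted p up to 0.142), nor its chow call with the block (adjusted p = 0.0987) or without valve C38, C42 or C45 or myocardium C43 or C49 (adjusted p = 0.0532 to 0.0831).

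The differences were -2.29 ± 0.37 for the transcription factor CREB5 (-1.13 ± 0.18 with diet and 1.24 ± 0.31 with chow) and -1.71 ± 0.32 for ANTXR2, a receptor of the cell surface (-0.83 ± 0.20 with diet and 0.95 ± 0.25 with chow). CREB5 did not pass in 3 of the 14 such fits, those without the third diet valve, myocardium C49 or the second diet myocardium library, and ANTXR2 in 10 (adjusted p up to 0.0673 and 0.104). ANTXR2 also lost its chow call (adjusted p = 0.0592) and its diet call (adjusted p = 0.0596) with the block. PCOLCE2 was at 3.04 ± 0.20 with diet and 5.11 ± 0.24 with chow, a difference of -2.0 ± 0.24, and MASP1 at 4.86 ± 0.27 with diet and 7.26 ± 0.28 with chow, a difference of -2.32 ± 0.37.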

How the results depend on the processing

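The count of 6445 genes called between the chow-fed tissues ranged over 5684 to 7731 under the other scalings, filters, tools and sets of genes or libraries fitted together, was 5001 in animals C42 and C43 alone with the replicate block, and ranged over 4684 to 7359 with 1 library left out. Scaling by library totals alone gave 4938 higher and 1827 lower, and turned the sign of 3 uncalled genes, HSPG2 (0.23), NFATC1 (0.076) and CAV1 (0.17). The count past the 2-fold test was 1148 with the animal as a replicate block and 1097 in animals C42 and C43 alone with that block, against 1763, and 1183 to 2296 with 1 library left out. With the block 5105 genes were called. Of 152 called genes named in the text 134 kept their call, 18 lost it, and 4 of 10 uncalled genes gained one, and the block changed no other chow call of a named gene. With the animal as a random block in limma voom, 150 of the 152 kept their call and 2 lost it. In the diet libraries the count of 7577 was 6625 with the block and 5624 to 7785 with 1 library left out. The difference of the contrasts, 68 genes, was 548 by DESeq2, 0 in edgeR with the animal as a fixed replicate block (1508 at an unadjusted p under 0.05), 229 in limma voom with the animal as a random replicate block, and 5 to 142 with 1 library left out. These 2 blocks were chosen after seeing the data, and the cause was not tested. Valve against aorta gave 3397, and 1795 to 4307 with 1 library left out. The sarcomere share of valve reads, 3.45%, was 2.67% to 4.05% with 1 valve left out and 1.47% over ventricular genes alone. The form pairs below every myocardium library numbered 17 or 18. Median log2 changes of lists with at least 10 tested genes kept their sign in each alternative except for adipocyte, atrial and ventricular, and cell cycle genes. With 3 or 4 libraries a tissue and totals from 12308739 reads, a gene that did not pass is not shown to be equal.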
